A study of Homo sapiens with 14 samples.

Results

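The net RNA change across pancreatic differentiation was measured by setting late pancreatic progenitors (PP2) against definitive endoderm (DE), the last and the first stage sampled here. Of 59050 gene symbols counted in bulk RNA sequencing, all 24603 with enough reads for a test were included, and 34447 were not tested. The cells were HUES8, an established human embryonic stem cell line of wild-type (WT) genotype, differentiated in culture. The comparison used 3 PP2 and 2 DE libraries of ribosomal RNA-depleted total RNA. The early pancreatic progenitor stage (PP1, 2 libraries) lay between them and shared the estimate of spread, and 7 ribosome profiling (Ribo) libraries covered the same stages. All groups came from this 1 line, and undifferentiated cells were not analysed here.

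Definitive endoderm is the embryonic layer that forms gut, liver and pancreas, and in culture it is made from stem cells by Nodal or activin signalling together with WNT. Its cells pass through a mesendoderm state marked by EOMES, MIXL1 and GSC, and then hold SOX17, FOXA2 and CXCR4. Pancreatic progenitors arise from foregut endoderm under retinoic acid and FGF signals, switch on PDX1 and SOX9, and later NKX6-1 and PTF1A. Liver and pancreas come from neighbouring foregut, and their early regulators overlap.

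Levels are CPM, counts scaled to a common library size after TMM normalization, edgeR's default. Fold changes are log2 of PP2 over DE with the standard error of the edgeR fit after the sign ±, and a gene was called where its Benjamini-Hochberg adjusted p was under 0.05. Libraries held 15107847 to 21009065 counts. Replicates were not stated to be separate differentiations, so the p-values reflect only how much these libraries vary, and that variation may be technical. In bulk RNA, fewer cells of a type and less RNA per cell cannot be told apart. RNA PP2 replicate 3 stood apart from its group. Chi-square divided by its degrees of freedom, a measure of how far 2 libraries differ beyond read sampling, was 141 and 152 between it and PP2 replicates 1 and 2, 3.48 between those, and 5.22 between the DE libraries. Its mitochondrially encoded protein genes summed to 9200.4 CPM, against 30541 and 35151 CPM in PP2 replicates 1 and 2 and 31778 and 38347 CPM in DE. Its replication-dependent histone genes summed to 10097 CPM, against 3361 and 3699.6 CPM in the other PP2 libraries. Where leaving it out changed the call of a named gene, or moved its fold change or the count of a named list by over 1.5 times, both values are given, and its part in the results beyond those values was not tested.

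**Figure D1:**
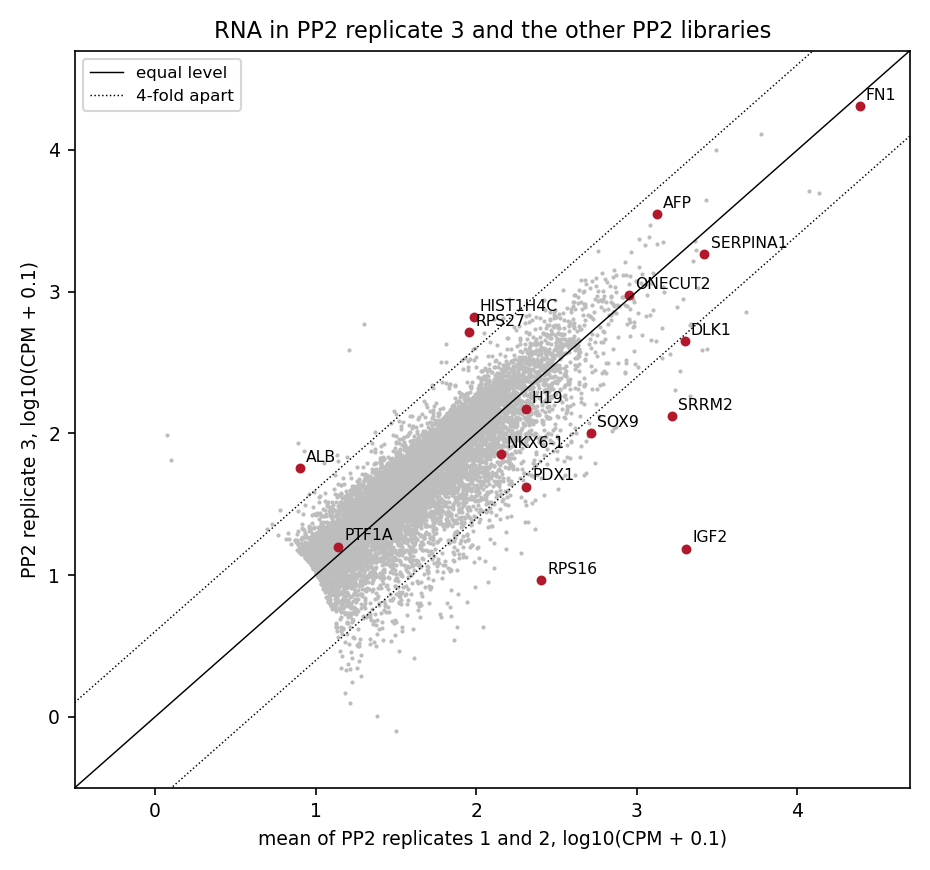
Each point is 1 gene, with the mean level of PP2 replicates 1 and 2 across and the level in PP2 replicate 3 up, both as log10(CPM + 0.1). Of 10395 genes with a PP2 mean of at least 10 CPM, 645 were over 1 log2 unit higher and 1134 over 1 lower in replicate 3, against 6 that differed so much between replicates 1 and 2, and IGF2 lies farthest below the diagonal among the labelled genes.

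The stage labels were checked against their markers. The DE markers SOX17, EOMES, CER1 and CXCR4 were high in both DE libraries and at most 16.7 CPM in any PP2 library. FOXA2 and GATA6, also on the DE list, kept 104, 107 and 53.6 CPM and 130.3, 137 and 43.7 CPM in PP2. Of the PP markers, PDX1 and NKX6-1 had no count in DE, and PTF1A had 1. MNX1 was higher, at 25.5, 27.2 and 17.9 CPM in PP2, against 10.3 and 13.3 CPM in DE (log2 0.99 ± 0.26, adjusted p = 0.0184), and ONECUT1 did not pass, at 20.5, 20.1 and 6.31 CPM in PP2, against 11.9 and 11.7 CPM in DE (log2 0.40 ± 0.44, adjusted p = 0.527). MNX1 did not pass without DE replicate 1, DE replicate 2 or PP2 replicate 2 (adjusted p = 0.162, 0.0684 and 0.050).

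Between DE and PP2, 8240 of 24603 tested genes (33.5%) differed, 4034 higher (16.4%) and 4206 lower (17.1%) in PP2. The median log2 difference over all tested genes was 0.05 as fitted and 0.05 with the bounds described below. Many of the called genes ended far from their DE level. With genes of 0 to 3 counts in a stage set to a bound or a count ratio (a size over 3 log2 units was fitted for 9.71% of all tested genes), 1025 called genes were over 3 log2 units higher and 1282 over 3 lower. Beyond 5 log2 units there were 283 higher and 512 lower, and beyond 7 there were 81 and 132, with the lower side holding more genes at each of these sizes. The floor of the bounds was 0.0941 CPM in DE and 0.0496 CPM in PP2, so bounds on rises stop sooner than bounds on falls. As fitted, without bounds, there were 483 higher and 592 lower beyond 5, and 214 and 289 beyond 7. At the other end, the 95% interval of 6011 genes (24.4%) lay wholly within 1 log2 unit of no change. Counts of each gene list below are to be read beside the 16.4% higher and 17.1% lower over all tested genes. Calls over all genes also rose without PP2 replicate 3, to 6097 higher and 6552 lower of 24105 tested. List counts without that library are to be read beside these. Leaving out either DE library leaves a single library in that stage, and calls over all genes fell. List counts and lost calls in those settings are to be read beside that general fall. Without DE replicate 1, DE replicate 2 or PP2 replicate 3 the called genes numbered 4481, 4216 and 12649.

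**Figure D2:**
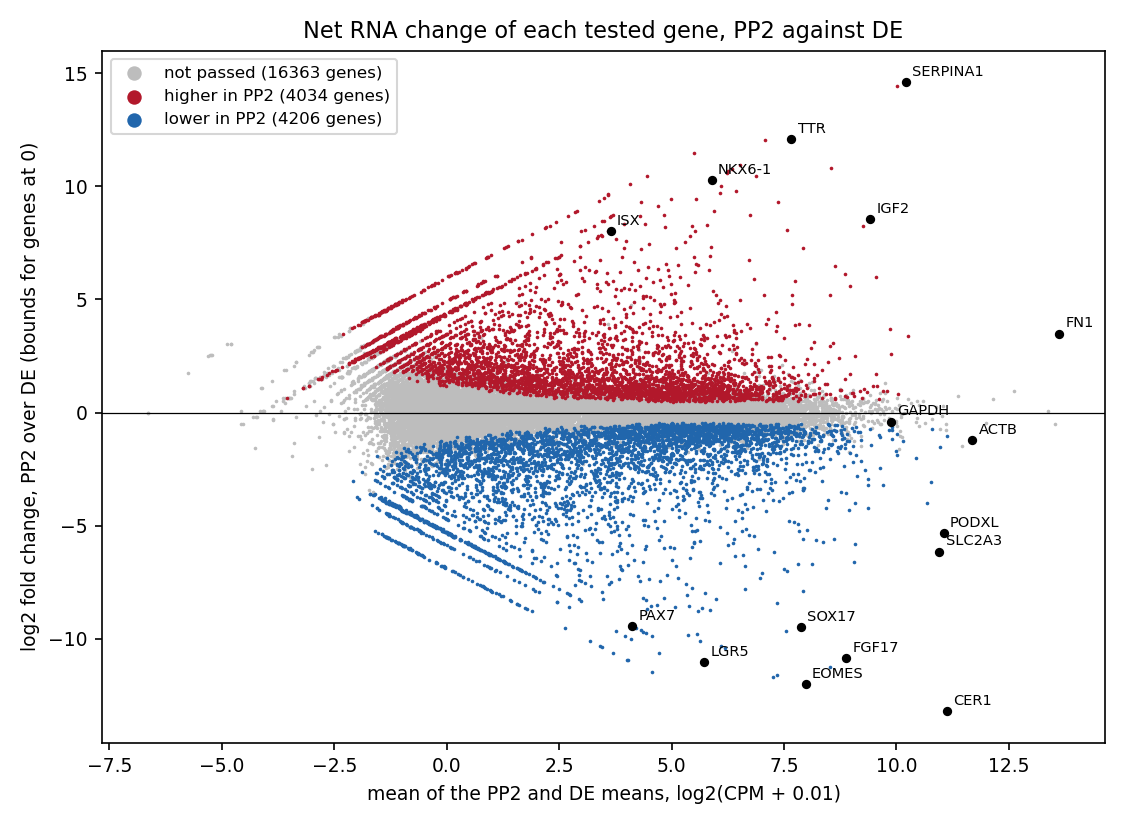
Each point is 1 of 24603 tested genes, with the mean level on a log2 axis across and the log2 fold change of PP2 over DE up, bounds being drawn for genes with no count in a stage. Called genes lie on both sides of 0 (4034 higher, 4206 lower), with SERPINA1 at the top and CER1 at the bottom.

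Genes that were silent at one end of the course were counted apart. In all, 270 genes had no count in either DE library and were called higher in PP2, among them 111 protein-coding genes. The reverse, no count in any PP2 library and a called fall, held for 222 genes, of which 40 were protein-coding. At 10 CPM or more in the stage that expressed them, 19 protein-coding genes were absent from DE and 5 from PP2. A gene reaches 0 more readily over 2 DE libraries than over 3 PP2 libraries. These numbers therefore do not compare how many genes were switched on and off. A count of 0 allows up to 0.0941 CPM in the 2 DE libraries together and 0.0496 CPM in the 3 PP2 libraries together (3 counts over the group). Fold changes against such a group are lower bounds computed with that floor, they cover counting error only, and reads are not independent molecules.

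The genes farthest above their DE level, picked by fitted fold change, were led by SERPINA1 and AFP. For genes with no count in DE the fit exceeded the bound given here. Changes of genes described below, such as CDH6 and SPINK1, are larger than some of these bounds. SERPINA1, the protease inhibitor alpha-1 antitrypsin, was at 2611, 2667 and 1852 CPM in PP2, against 0 and 0 CPM in DE, at least 25059.6-fold higher (adjusted p = 4.17e-06). AFP, the fetal plasma protein alpha-fetoprotein, was at 1243, 1427 and 3538 CPM in PP2, against 0 and 0 CPM in DE, at least 22612-fold higher (adjusted p = 3.60e-05). The transport protein TTR was at 266, 314 and 634 CPM in PP2, against 0 and 0 CPM in DE, at least 4398-fold higher. These 3 genes were absent from both DE libraries and high in all PP2 libraries. No overlap of the libraries was a condition for picking them, and 60.2% of all tested genes met it. COL3A1, a fibrillar collagen, was at 225, 88 and 175 CPM in PP2, against 0 and 0 CPM in DE (at least 1730.3-fold higher), and the fibrinogen chain FGB at 97, 116 and 245 CPM in PP2, against 0 and 0 CPM in DE (at least 1661-fold higher). Then came the pancreatic regulators PDX1 and NKX6-1, described below. The tetraspan membrane proteins TM4SF1 and TM4SF4 were at least 697-fold higher and at least 569-fold higher, LHFPL3 at least 323-fold higher, and the intestinal homeobox gene ISX at least 261-fold higher. For TM4SF1 the change was at least 408-fold higher without PP2 replicate 3. For TM4SF4 the change was at least 374-fold higher without PP2 replicate 3. For AFP the change was at least 14211-fold higher without PP2 replicate 3.

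The genes farthest below their DE level were also picked by fitted fold change. With bounds in place of fits for genes at 0, they were led by CER1 and EOMES. CER1, a secreted antagonist of Nodal, BMP and WNT ligands, was at 0.522, 0.306 and 0.553 CPM in PP2, against 4369 and 4562 CPM in DE (log2 -13.22 ± 0.36, adjusted p = 1.81e-06). Per transcript length it was the most abundant nuclear protein-coding RNA in DE, at 14027 TPM (length-scaled counts summing to the same total in each library), and it was at 1.54 TPM in PP2. EOMES, a T-box factor of mesendoderm, was at 0.104, 0.204 and 0.0461 CPM in PP2, against 479 and 529 CPM in DE (log2 -12.00 ± 0.46, adjusted p = 3.29e-06). For both genes every PP2 library was under 1 CPM and every DE library over 400 CPM. The zinc finger factor ZIC2 (log2 -11.72 ± 0.35, adjusted p = 2.72e-06), the Nodal inhibitor LEFTY2 (log2 -11.60 ± 0.52, adjusted p = 4.86e-06) and the Nodal co-receptor TDGF1 (log2 -11.26 ± 0.51, adjusted p = 4.90e-06) followed. FGF17, an FGF8-related ligand, was at 0.417, 0.408 and 0.645 CPM in PP2, against 891 and 994 CPM in DE (log2 -10.88 ± 0.29, adjusted p = 1.81e-06). LGR5, a receptor for R-spondins, had 3 counts in PP2 and was lower by a ratio of 2122-fold (95% counting interval 726 to 10296), against 104 and 107 CPM in DE. PAX7, a paired-box factor, had no count in PP2 and 32.8 and 36.7 CPM in DE (at least 698-fold lower). The other genes of this rank with no count in PP2 were LMNTD1 (at least 867-fold lower), C13orf42 (at least 741-fold lower), CD300E (at least 321-fold lower) and the homeobox gene NKX1-2 (at least 257-fold lower). Falls of genes described below, such as GSC and SOX17, are larger than some of these bounds. For EOMES the change was a ratio of 6848-fold (95% counting interval 2343 to 33210.2) without PP2 replicate 2. For LEFTY2 the change was a ratio of 12674-fold (95% counting interval 2274 to 500633) without PP2 replicate 3. For TDGF1 the change was log2 -12.40 without PP2 replicate 3. For LGR5 the change was a ratio of 4082-fold (95% counting interval 732 to 161277) without PP2 replicate 3.

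Promoter sequences of these extremes were read from RefSeq (GRCh38.p14), the 250 bases before each annotated start, for the 15 of 24 genes that matched by name. Both strands were searched for 6 short motifs. TATAAA is the core of the TATA box, and GTTAAT is a half-site of the HNF1 factors. TGTTTAC is bound by forkhead factors such as FOXA2, and AGATAA by the zinc finger factors GATA4 and GATA6. ATCAAT is bound by ONECUT factors, and TCACAC is part of the site of T-box factors such as EOMES. GTTAAT occurred in 3 of 8 promoters of genes that were higher (AFP, FGB and TM4SF4) and in 0 of 7 of genes that were lower, against 6.22% of 27305 promoters in the table. TATAAA occurred in AFP, TM4SF4 and EOMES, against 11.1% of all promoters. TGTTTAC occurred in C13orf42 (2.98% of all promoters). None of the 15 windows held AGATAA (9.37% of all promoters) or ATCAAT (5.69% of all promoters), nor did any hold TCACAC (9.83% of all promoters). These matches describe letters in the window and were not tested as sites. The windows of 5 genes follow, 5′ to 3′, AFP, FGB and TM4SF4 from the genes that were higher because they hold GTTAAT, and EOMES and CER1 as the leading genes that were lower, with capitals on matches to TATAAA and GTTAAT or their reverse complements. AFP lies at chr4:73435971-73436220, plus strand, FGB at chr4:154562730-154562979, plus strand, TM4SF4 at chr3:149474447-149474696, plus strand, EOMES at chr3:27722324-27722573, minus strand and CER1 at chr9:14722734-14722983, minus strand, and CER1 has no match.
AFP: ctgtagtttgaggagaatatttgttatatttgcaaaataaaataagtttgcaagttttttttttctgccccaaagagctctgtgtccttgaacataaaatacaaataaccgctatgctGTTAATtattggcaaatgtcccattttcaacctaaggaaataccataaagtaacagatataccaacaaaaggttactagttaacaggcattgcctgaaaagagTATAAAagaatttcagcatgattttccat
FGB: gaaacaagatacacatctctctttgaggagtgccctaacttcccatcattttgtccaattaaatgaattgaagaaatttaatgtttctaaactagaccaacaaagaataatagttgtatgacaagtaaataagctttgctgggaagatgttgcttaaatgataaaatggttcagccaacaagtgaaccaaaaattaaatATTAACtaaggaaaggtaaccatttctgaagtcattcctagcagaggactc
TM4SF4: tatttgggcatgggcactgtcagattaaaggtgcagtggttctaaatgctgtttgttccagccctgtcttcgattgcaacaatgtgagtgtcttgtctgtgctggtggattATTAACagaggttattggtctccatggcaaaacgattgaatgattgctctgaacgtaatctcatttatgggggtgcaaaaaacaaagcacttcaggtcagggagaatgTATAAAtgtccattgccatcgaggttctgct
EOMES: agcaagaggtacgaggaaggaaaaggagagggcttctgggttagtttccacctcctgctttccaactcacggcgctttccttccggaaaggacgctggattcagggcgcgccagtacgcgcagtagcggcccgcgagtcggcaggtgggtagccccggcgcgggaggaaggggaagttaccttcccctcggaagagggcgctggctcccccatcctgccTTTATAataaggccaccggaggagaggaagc
CER1: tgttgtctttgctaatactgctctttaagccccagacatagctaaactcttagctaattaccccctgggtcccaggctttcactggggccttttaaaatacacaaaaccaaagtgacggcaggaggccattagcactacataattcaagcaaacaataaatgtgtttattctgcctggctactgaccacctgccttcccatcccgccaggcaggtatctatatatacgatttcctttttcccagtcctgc
In AFP and TM4SF4 the TATAAA match begins 29 and 31 bases before the start and the GTTAAT match 132 and 139 bases before it. In FGB the GTTAAT match begins 51 bases before the start.

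By share of reads, which favours long and abundant RNAs, other genes led the change. FN1, the matrix glycoprotein fibronectin, was at 23795, 25147 and 20373 CPM in PP2, against 2083 and 2034 CPM in DE (log2 3.49 ± 0.27, adjusted p = 4.36e-05). FN1 alone held 9.65% of the CPM gained over all tested genes, called or not. Per length it ranked 2nd among nuclear protein-coding RNAs in PP2, at 5542 TPM, and 150th in DE, at 457 TPM. The other genes with the largest gains were SERPINA1, AFP, the proteoglycan VCAN (log2 3.37 ± 0.24, adjusted p = 2.96e-05), the adhesion receptor PRTG (log2 3.70 ± 0.28, adjusted p = 4.28e-05), the growth regulators DLK1 and IGF2, and the surface protein CD24 (log2 2.60 ± 0.37, adjusted p = 0.00103). The largest losses after CER1 were in the sialomucin PODXL, at 108, 129.5 and 72.5 CPM in PP2, against 4189.5 and 4096 CPM in DE (log2 -5.32 ± 0.30, adjusted p = 1.09e-05), and the glucose transporter SLC2A3, at 32.4, 38.5 and 94.1 CPM in PP2, against 4125 and 3711 CPM in DE (log2 -6.15 ± 0.48, adjusted p = 4.74e-05). PEG10, a retrotransposon-derived imprinted gene (log2 -3.99 ± 0.25, adjusted p = 1.57e-05), the scaffold AHNAK (log2 -3.08 ± 0.31, adjusted p = 1.67e-04), the actin gene ACTB (log2 -1.24 ± 0.34, adjusted p = 0.0248) and APLP2, a relative of the amyloid precursor (log2 -1.53 ± 0.27, adjusted p = 0.00346), came next. Over all tested genes, called or not, 307 genes held 50% of the CPM gained and 326 held 50% of the CPM lost. ACTB did not pass without DE replicate 1 or DE replicate 2 (adjusted p = 0.112 and 0.114). For SLC2A3 the change was log2 -6.78 without PP2 replicate 3.

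Nearly all mesendoderm genes fell. Of 12 tested primitive streak and mesendoderm genes, 11 were lower and 1 did not pass, at a median of log2 -8.28, or -7.51 with bounds, against 17.1% of all genes called lower. MIXL1, a homeobox factor of the streak, was at 0.992, 1.17 and 0.507 CPM in PP2, against 188 and 207 CPM in DE (log2 -7.79 ± 0.37, adjusted p = 5.56e-06). GSC, an organizer homeobox gene, was at 0, 0.255 and 0 CPM in PP2, against 91.9 and 106 CPM in DE (log2 -10.11 ± 0.63, adjusted p = 1.56e-05), and LHX1, a LIM homeobox factor, was at 0.313, 0.153 and 0.184 CPM in PP2, against 84 and 109 CPM in DE (log2 -8.76 ± 0.29, adjusted p = 2.76e-06). In each of these the stages were far apart. EVX1 had no count in PP2 (at least 150.4-fold lower), and TBXT, the streak gene brachyury, was already low in DE, at 0.0522, 0 and 0.0922 CPM in PP2, against 1.01 and 1.4 CPM in DE, a ratio of 24-fold (95% counting interval 7.62 to 122). The T-box gene TBX6 was the member that did not pass (log2 -0.69 ± 0.44, adjusted p = 0.27). TBXT did not pass without DE replicate 2 (adjusted p = 0.0723). For GSC the change was at least 1342-fold lower without PP2 replicate 2 and log2 -9.50 without PP2 replicate 3. For TBXT the change was a ratio of 46.2-fold (95% counting interval 7.8 to 1871) without PP2 replicate 3.

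Most genes of the Nodal pathway were lower as well. Of 13 tested members, 11 were lower and 2 did not pass (median log2 -4.79). The ligand NODAL was at 0.887, 0.918 and 1.24 CPM in PP2, against 44.1 and 58.5 CPM in DE (log2 -5.64 ± 0.30, adjusted p = 8.07e-06), and the ligand GDF3 had no count in PP2 (at least 72.7-fold lower). The inhibitors LEFTY1 (log2 -4.79 ± 0.42, adjusted p = 8.38e-05) and LEFTY2 and the transcription partner FOXH1, at 0.417, 0.663 and 0.138 CPM in PP2, against 75.9 and 99.3 CPM in DE (log2 -7.75 ± 0.43, adjusted p = 9.00e-06), were lower as well. Among receptors, ACVR2B was at 312, 314 and 229.6 CPM in PP2, against 485 and 498 CPM in DE (log2 -0.79 ± 0.20, adjusted p = 0.0157), while ACVR1B did not pass (log2 0.09 ± 0.17, adjusted p = 0.729). The feedback inhibitor SMAD7 (log2 -2.33 ± 0.20, adjusted p = 6.64e-05) was lower too. ACVR2B did not pass without DE replicate 1 or DE replicate 2 (adjusted p = 0.098 and 0.112). For LEFTY1 the change was log2 -5.40 without PP2 replicate 3.

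Among 16 definitive endoderm genes, 8 were lower, 1 was higher and 7 did not pass (median log2 -1.13), or 2 higher and 10 lower without PP2 replicate 3. SOX17, an HMG-box factor that specifies endoderm, was at 0.417, 0.612 and 0.876 CPM in PP2, against 454 and 486 CPM in DE (log2 -9.50 ± 0.33, adjusted p = 2.76e-06), and the chemokine receptor CXCR4 was at 8.04, 7.91 and 16.7 CPM in PP2, against 145 and 159.6 CPM in DE (log2 -3.80 ± 0.33, adjusted p = 8.21e-05). The receptor kinase KIT (log2 -2.26 ± 0.16, adjusted p = 3.27e-05), the repressor PRDM1 (log2 -3.40 ± 0.30, adjusted p = 9.04e-05), GATA6 (log2 -2.41 ± 0.43, adjusted p = 0.00327) and FOXA2 (log2 -1.48 ± 0.28, adjusted p = 0.00486) were lower by smaller amounts. The member that was higher was FOXA1, a forkhead factor, at 252, 259.7 and 121 CPM in PP2, against 23.7 and 26.2 CPM in DE (log2 3.08 ± 0.36, adjusted p = 3.68e-04). HHEX, a homeobox factor of foregut endoderm, did not pass, at 39.2, 46.4 and 43.5 CPM in PP2, against 42.7 and 49.5 CPM in DE (log2 -0.10 ± 0.18, adjusted p = 0.708), and neither did GATA4 (log2 -0.78 ± 0.44, adjusted p = 0.214) or EPCAM (log2 -0.37 ± 0.30, adjusted p = 0.376). GATA4 passed as lower without PP2 replicate 3 (log2 -0.39, adjusted p = 5.47e-04).

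Pluripotency genes were mostly lower. Of 13 tested, 9 were lower, 2 were higher and 2 did not pass. The core factor POU5F1 was at 0.261, 0.459 and 0.553 CPM in PP2, against 27.8 and 29.7 CPM in DE (log2 -6.05 ± 0.29, adjusted p = 5.62e-06), and NANOG was at 0, 0.102 and 0.0461 CPM in PP2, against 11.6 and 14.4 CPM in DE, a ratio of 261-fold (95% counting interval 88.7 to 1270.5). The methyltransferase DNMT3B (log2 -3.55 ± 0.19, adjusted p = 8.50e-06), the RNA-binding protein L1TD1 (log2 -5.21 ± 0.22, adjusted p = 4.17e-06) and the zinc finger factor SALL4 (log2 -1.81 ± 0.20, adjusted p = 3.05e-04) were lower. SOX2, shared by stem cells and by foregut and neural cells, was higher, at 13.5, 11.6 and 7.51 CPM in PP2, against 0.297 and 0.93 CPM in DE (log2 4.16 ± 0.49, adjusted p = 3.88e-04), as was ZFP42 (log2 0.96 ± 0.28, adjusted p = 0.0314). LIN28A, which blocks let-7 maturation, was lower but abundant, at 607, 647 and 738 CPM in PP2, and of 7 fetal RNA regulators 4 were lower and the rest did not pass. Fetal RNA regulator genes called numbered 1 without DE replicate 1. ZFP42 lost its call on leaving out any 1 of 4 libraries, with adjusted p of 0.0555 to 0.163, highest without DE replicate 1. For SOX2 the change was log2 3.53 without DE replicate 1 and log2 5.16 without DE replicate 2. For NANOG the change was a ratio of 529-fold (95% counting interval 94.4 to 20946) without PP2 replicate 2.

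Most pancreatic progenitor genes ended above DE, with large differences among them. Of 20 tested, 12 were higher, 2 lower and 6 did not pass, at a median of log2 2.33, against 16.4% of all genes called higher. PDX1, the homeobox factor that specifies pancreas, was at 212, 198 and 42.1 CPM in PP2, against 0 and 0 CPM in DE (at least 1558-fold higher, adjusted p = 3.68e-04). NKX6-1, which marks late progenitors able to form beta cells, was at 150.4, 134 and 71.4 CPM in PP2, against 0 and 0 CPM in DE (at least 1240.0-fold higher, adjusted p = 2.26e-05). Both were absent from DE, and PP2 replicate 3 held the lowest PP2 level of each. SOX9, needed to maintain the progenitor pool, was at 511, 521 and 100.4 CPM in PP2, against 1.07 and 1.73 CPM in DE (log2 8.08 ± 0.89, adjusted p = 2.78e-04), again lowest in PP2 replicate 3. PTF1A, a regulator of multipotent and acinar cells, was even across PP2 libraries, at 14.8, 12.8 and 15.8 CPM in PP2, against 0.0593 and 0 CPM in DE, a ratio of 463-fold (95% counting interval 82.8 to 18296). ONECUT2, a cut-homeobox factor, was at 799, 996 and 949 CPM in PP2, against 14.2 and 11.6 CPM in DE (log2 6.15 ± 0.27, adjusted p = 4.38e-06). The nuclear receptor NR5A2 (log2 3.42 ± 0.27, adjusted p = 4.46e-05) and the tip-cell enzyme gene CPA1, a ratio of 117-fold (95% counting interval 32.1 to 966), were higher. For CPA1 the change was a ratio of 61.6-fold (95% counting interval 16.9 to 510.1) without DE replicate 2. For PTF1A the change was a ratio of 244-fold (95% counting interval 43.8 to 9664) without DE replicate 2.

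HNF4A, a nuclear receptor of foregut, liver and pancreas, did not pass, at 68.9, 74.6 and 14.5 CPM in PP2, against 37.2 and 28.9 CPM in DE (log2 0.67 ± 0.57, adjusted p = 0.406). Its level in PP2 replicate 3 was under that of every other library of the 2 stages. It passed as higher without that library (log2 1.12, adjusted p = 4.67e-08), as did ONECUT1 (log2 0.78, adjusted p = 1.48e-04). Without PP2 replicate 3, 15 progenitor genes were higher and 2 lower, against 6097 and 6552 of all 24105 genes tested in that setting.

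Plasma protein genes of the liver had the highest median of the 40 lists. Of 19 tested, 18 were higher and 1 did not pass (HP, log2 0.16 ± 0.46, adjusted p = 0.815), at a median of log2 7.28, or 5.35 with bounds. The list summed to 5021 to 7691 CPM in PP2 and 41.9 to 48 CPM in DE, and 8 of its 20 genes had no count in DE. APOB, the core protein of large lipoproteins, was at 371, 429 and 642 CPM in PP2, against 2.26 and 3.92 CPM in DE (log2 7.28 ± 0.44, adjusted p = 1.31e-05). The fibrinogen chains FGA (log2 7.79 ± 0.80, adjusted p = 1.91e-04) and FGG (at least 262-fold higher), the adhesive protein VTN (log2 5.35 ± 0.33, adjusted p = 1.46e-05), the protease inhibitor precursor AMBP (log2 7.26 ± 0.51, adjusted p = 2.80e-05) and the lipoprotein gene APOA1 (log2 3.61 ± 0.22, adjusted p = 1.49e-05) were higher. ALB, the main plasma protein of mature liver, was at 6.42, 9.39 and 56.6 CPM in PP2, against 0.0593 and 0 CPM in DE, a ratio of 809.8-fold (95% counting interval 145 to 32007), with most of its reads in PP2 replicate 3. The part of hepatic cells in the PP2 values was not tested. For FGA the change was a ratio of 436-fold (95% counting interval 149 to 2117) without DE replicate 1 and log2 7.02 without PP2 replicate 3. For ALB the change was a ratio of 428-fold (95% counting interval 76.7 to 16907) without DE replicate 2 and a ratio of 253-fold (95% counting interval 45 to 10010.3) without PP2 replicate 3. For FGG the change was at least 153-fold higher without PP2 replicate 3.

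The intermediate stage differed among these genes. AFP was at 0 ± 0 CPM at DE, 6775 ± 295 CPM at PP1 and 2069.8 ± 1275 CPM at PP2, and APOB was at 3.09 ± 1.178 CPM at DE, 4448 ± 342 CPM at PP1 and 481 ± 142 CPM at PP2 (mean ± SD, n = 2, 2 and 3). FGB followed the same course, at 0 ± 0 CPM at DE, 866 ± 15.2 CPM at PP1 and 153 ± 80.3 CPM at PP2. SERPINA1 ran the other way, at 0 ± 0 CPM at DE, 67.1 ± 10.4 CPM at PP1 and 2377 ± 455 CPM at PP2. The net change from DE to PP2 was thus smaller than the change at PP1 for AFP, APOB and FGB, and larger for SERPINA1.

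Genes of intestine were mostly higher as well. Of 9 tested, 7 were higher, 1 was lower (LGR5) and 1 did not pass, and the list summed to 343 to 453 CPM in PP2 and 179 to 182 CPM in DE. CDX2, the homeobox factor of midgut and hindgut, was at 18, 20.7 and 7.84 CPM in PP2, against 0.0593 and 0.199 CPM in DE (log2 6.87 ± 0.66, adjusted p = 1.41e-04). ISX was at 31.2, 28.9 and 14.8 CPM in PP2, against 0 and 0 CPM in DE, the brush-border protein VIL1 was at 137, 131 and 104 CPM in PP2, against 16.1 and 15.2 CPM in DE (log2 2.98 ± 0.22, adjusted p = 3.26e-05), and the factor KLF5 was at 189, 212 and 166 CPM in PP2, against 44 and 37.7 CPM in DE (log2 2.21 ± 0.20, adjusted p = 1.01e-04). The goblet cell mucin MUC2 and the enterocyte genes ALPI and FABP2 had too few counts for a test. Of 9 stomach and lung genes 3 were higher and 4 lower. CLDN18 (log2 3.19 ± 0.27, adjusted p = 7.57e-05) was higher, and the stomach factor BARX1 (log2 -2.81 ± 0.40, adjusted p = 0.00102) and the lung and thyroid factor NKX2-1 (log2 -6.37 ± 0.77, adjusted p = 4.42e-04) were lower. For CDX2 the change was a ratio of 76.3-fold (95% counting interval 26 to 371) without DE replicate 1 and a ratio of 256-fold (95% counting interval 45.9 to 10138) without DE replicate 2. For NKX2-1 the change was at least 83.3-fold lower without PP2 replicate 1 and log2 -5.77 without PP2 replicate 3.

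Endocrine regulators differed in both directions. Of 15 endocrine regulators, 6 were higher, 6 lower and 3 did not pass (median log2 0.53). RFX6, a factor of gut and islet development, was at 43.5, 45 and 28.9 CPM in PP2, against 0.119 and 0.0665 CPM in DE, a ratio of 412-fold (95% counting interval 141 to 1998), and SOX4 was at 747, 764 and 803 CPM in PP2, against 242 and 225 CPM in DE (log2 1.72 ± 0.18, adjusted p = 2.28e-04). NEUROG3, the switch that starts endocrine differentiation, and its target NEUROD1 were absent from DE and low in PP2, at 0.835, 0.612 and 0.323 CPM and 0.939, 1.33 and 0.277 CPM (at least 6.16-fold higher and at least 8.79-fold higher). PAX6, a paired-box factor of eye, brain and islets, was at 0.313, 0.102 and 0.323 CPM in PP2, against 99.2 and 105 CPM in DE (log2 -8.65 ± 0.41, adjusted p = 5.62e-06), and ISL1 was at 0.417, 0.255 and 0.323 CPM in PP2, against 10.1 and 11.4 CPM in DE (log2 -5.0 ± 0.30, adjusted p = 1.35e-05). Those 2 islet factors were thus far higher in DE than in PP2. MAFA (log2 -1.86 ± 0.40, adjusted p = 0.00798), LMX1B (log2 -4.29 ± 0.38, adjusted p = 9.14e-05) and MYT1 (log2 -4.45 ± 0.38, adjusted p = 6.85e-05) were lower too. NEUROD1 did not pass without DE replicate 1 or DE replicate 2 (adjusted p = 0.104 and 0.099). MAFA did not pass without DE replicate 2 (adjusted p = 0.0747). NEUROG3 did not pass without DE replicate 1 or DE replicate 2 (adjusted p = 0.0698 and 0.0659).

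Secretory granule genes were higher in part. Of 13 tested granule and hormone genes, 7 were higher, 1 lower and 5 did not pass, or 8 higher and 2 lower without PP2 replicate 3. CHGA, a granule core protein, was at 47.1, 68.7 and 70.3 CPM in PP2, against 1.48 and 1.79 CPM in DE (log2 5.24 ± 0.35, adjusted p = 2.13e-05), and SCG2, a related granin, was at 5.84, 11.8 and 16.8 CPM in PP2, against 0.0593 and 0.0665 CPM in DE, a ratio of 187-fold (95% counting interval 51.6 to 1547). The hormone genes INS and GCG had 2 and 2 counts in the 3 PP2 libraries together and none in DE, too few for a test. Of 6 acinar genes, 4 were higher. SPINK1, a trypsin inhibitor, was at 185, 159.8 and 356 CPM in PP2, against 0.237 and 0.0665 CPM in DE (log2 10.48 ± 0.76, adjusted p = 3.27e-05), and the procarboxypeptidase CPB1 was at 8.09, 8.11 and 15.8 CPM in PP2, against 0.0593 and 0 CPM in DE, a ratio of 347-fold (95% counting interval 62 to 13711). AMY2A, PNLIP and CTRB2, enzymes of mature acini, had no count in either stage. Trypsinogen genes share near-identical sequence, so the value of PRSS1 (log2 2.79 ± 0.71, adjusted p = 0.0171) is uncertain. Acinar genes called numbered 2 without DE replicate 1 and 2 without DE replicate 2. PRSS1 did not pass without DE replicate 1 or DE replicate 2 (adjusted p = 0.0986 and 0.125). For SPINK1 the change was a ratio of 3585-fold (95% counting interval 643 to 141625) without DE replicate 1 and log2 9.89 without DE replicate 2. For CPB1 the change was a ratio of 183-fold (95% counting interval 32.7 to 7243) without DE replicate 2. For PRSS1 the change was log2 1.70 without PP2 replicate 3.

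Duct and epithelial transport genes were higher in 9 of 17, lower in 1 and not called in 7 (median log2 2.44, or 1.57 with bounds), and 11 were higher and 3 lower without PP2 replicate 3. SLC4A4, a sodium bicarbonate transporter of duct and acinar cells, was at 1280.4, 1223 and 1145 CPM in PP2, against 4.63 and 3.26 CPM in DE (log2 8.26 ± 0.39, adjusted p = 5.54e-06). The sodium channel subunit SCNN1G was absent from DE and at 21.2, 23.9 and 15.3 CPM in PP2 (at least 212-fold higher), while SCNN1A, its partner subunit, was lower, at 2.66, 3.78 and 2.12 CPM in PP2, against 63.1 and 75.6 CPM in DE (log2 -4.60 ± 0.27, adjusted p = 1.13e-05). Subunits of the same channel thus ended on opposite sides of their DE levels. The chloride channel CFTR (log2 3.91 ± 0.42, adjusted p = 2.37e-04), the chloride exchanger SLC26A3 (log2 5.94 ± 0.36, adjusted p = 1.36e-05), the tight junction gene CLDN4 (log2 5.0 ± 0.34, adjusted p = 2.20e-05) and the annexin ANXA4 (log2 3.73 ± 0.23, adjusted p = 1.57e-05) were higher. KRT19, a ductal keratin, did not pass, at 339, 381 and 420.0 CPM in PP2, against 467 and 483 CPM in DE (log2 -0.32 ± 0.19, adjusted p = 0.241), and was lower without PP2 replicate 3 (log2 -0.39, adjusted p = 0.00307).

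**Figure D3:**
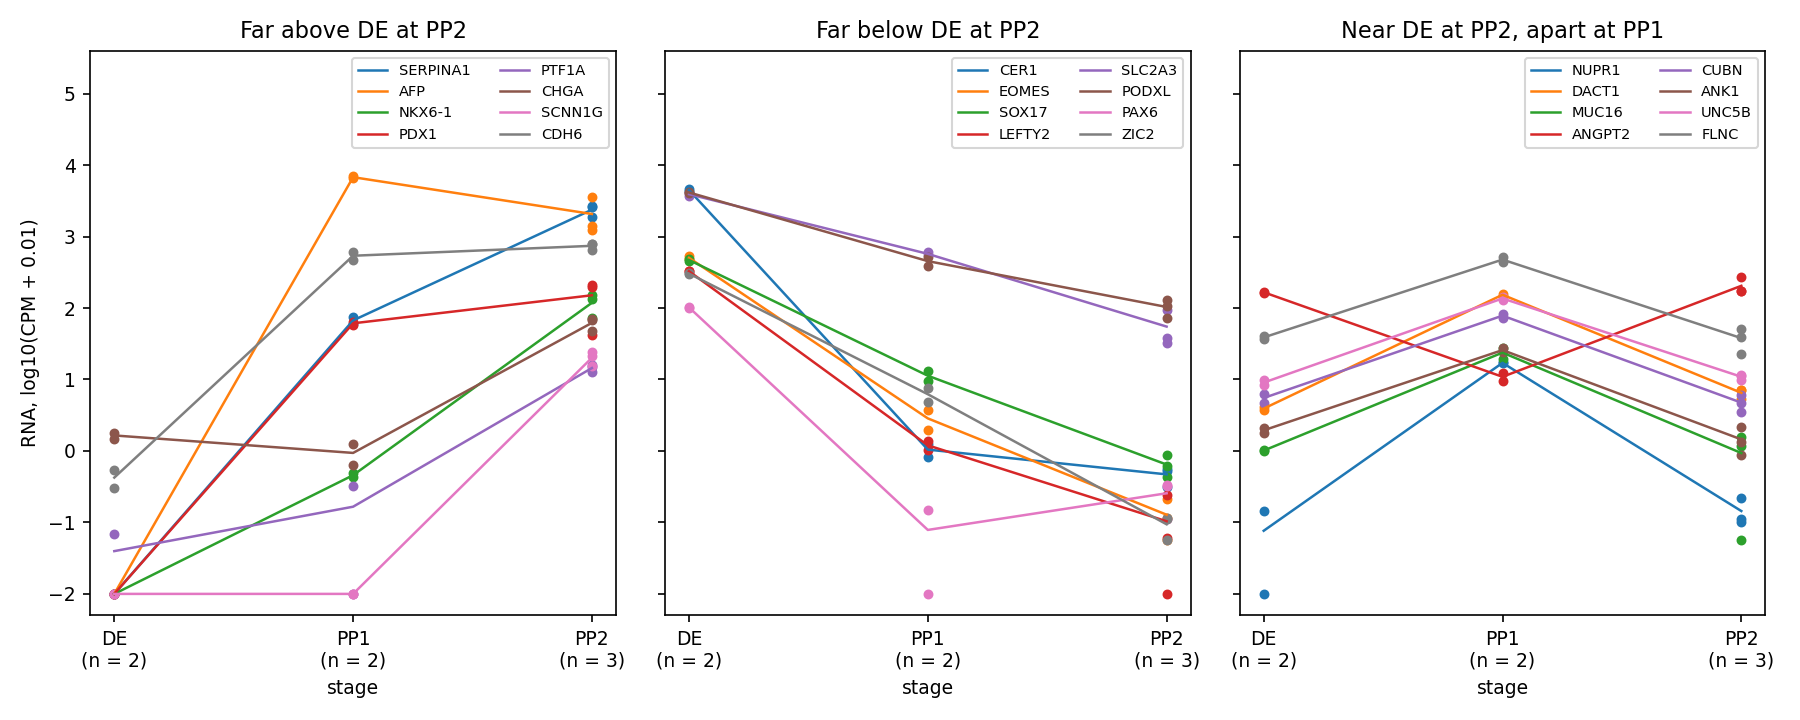
Points are CPM of single RNA libraries on a log10 axis with 0.01 added, lines join the stage means, and the stages run DE, PP1, PP2 (n = 2, 2 and 3). The left panel holds genes far above DE at PP2, the middle panel genes far below it, and the right panel genes near DE at PP2 that differed at PP1. NKX6-1, PTF1A, CHGA and SCNN1G show their rise after PP1, and AFP is lower at PP2 than at PP1.

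The course between DE and PP2 differed among named genes, given here as mean ± SD with n = 2, 2 and 3. NKX6-1 was at 0 ± 0 CPM at DE, 0.448 ± 0.0452 CPM at PP1 and 118.5 ± 41.6 CPM at PP2, and CHGA was at 1.64 ± 0.22 CPM at DE, 0.929 ± 0.431 CPM at PP1 and 62 ± 13 CPM at PP2, so their net change lay after PP1. SLC4A4 was at 3.94 ± 0.971 CPM at DE, 52.4 ± 18.6 CPM at PP1 and 1216 ± 67.7 CPM at PP2. PDX1 was at 0 ± 0 CPM at DE, 61.1 ± 4.14 CPM at PP1 and 151 ± 94.4 CPM at PP2 and CDH6, a cadherin of early epithelia, at 0.414 ± 0.166 CPM at DE, 539 ± 90.2 CPM at PP1 and 742 ± 73.3 CPM at PP2, and most of their log2 change was present at PP1. On the lower side, CER1 was at 4465 ± 136 CPM at DE, 1.04 ± 0.301 CPM at PP1 and 0.46 ± 0.134 CPM at PP2 and PAX6 at 102 ± 3.93 CPM at DE, 0.0685 ± 0.0969 CPM at PP1 and 0.246 ± 0.125 CPM at PP2, already near their PP2 levels at PP1. SLC2A3 was at 3918 ± 293 CPM at DE, 573 ± 40.8 CPM at PP1 and 55 ± 34 CPM at PP2, lower at each step.

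Some genes ended near DE although they were far from it at PP1. The stress protein gene NUPR1 was at 0.0665 ± 0.094 CPM at DE, 17.1 ± 0.474 CPM at PP1 and 0.134 ± 0.0646 CPM at PP2, and DACT1, a WNT pathway modulator, was at 3.91 ± 0.264 CPM at DE, 153 ± 5.4 CPM at PP1 and 6.5 ± 1.08 CPM at PP2. CUBN, an endocytic receptor, was at 5.5 ± 1.11 CPM at DE, 78.2 ± 7.92 CPM at PP1 and 4.73 ± 1.26 CPM at PP2, and the netrin receptor UNC5B at 9.04 ± 1.12 CPM at DE, 136 ± 8.07 CPM at PP1 and 10.9 ± 1.07 CPM at PP2. ANGPT2, an angiopoietin, showed the opposite course, at 166 ± 4.63 CPM at DE, 10.9 ± 1.94 CPM at PP1 and 205 ± 54.8 CPM at PP2. They were chosen by this pattern, with the 3 others in the right panel of the plot by stage, so it is a description. DACT1 was nevertheless called between PP2 and DE (log2 0.73 ± 0.21, adjusted p = 0.026). For NUPR1, with 8 counts over the PP2 libraries and 2 in DE replicate 2, nearness to DE is uncertain. DACT1 lost its call on leaving out any 1 of 5 libraries, with adjusted p of 0.0564 to 0.197, highest without DE replicate 2.

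HOX genes, which pattern the body axis, changed in both directions. Of 24 HOX genes tested, 6 were higher and 11 lower, against 16.4% and 17.1% of all genes. Genes that were higher included HOXA2, HOXA3, HOXA5, HOXC4 and HOXC5. Among them HOXA2 and HOXA3 had no count in DE and were at 10.7, 7.19 and 4.29 CPM and 32.4, 29.5 and 3.69 CPM in PP2 (at least 77.2-fold higher and at least 225-fold higher). Those that were lower were mainly posterior genes, with HOXD1 and HOXD3 as anterior exceptions. HOXD13, the last gene of its cluster, was at 0.261, 0.051 and 0.0461 CPM in PP2, against 46.3 and 47.2 CPM in DE (log2 -8.57 ± 0.44, adjusted p = 7.25e-06), and HOXD9 (log2 -4.69 ± 0.67, adjusted p = 0.0011), HOXD10 (log2 -4.98 ± 0.79, adjusted p = 0.00194), HOXB13 (log2 -2.20 ± 0.23, adjusted p = 2.15e-04) and HOXA13 (log2 -2.11 ± 0.39, adjusted p = 0.00424) were lower as well. The HOX cofactors MEIS1 (log2 3.84 ± 0.24, adjusted p = 1.55e-05) and MEIS2 (log2 4.37 ± 0.22, adjusted p = 6.41e-06) were higher and MEIS3 (log2 -3.54 ± 0.19, adjusted p = 8.29e-06) was lower. HOX genes called numbered 11 without DE replicate 1. HOXD3 lost its call on leaving out any 1 of 6 libraries, with adjusted p of 0.0507 to 0.424, highest without DE replicate 1. HOXA5 did not pass without DE replicate 1 or DE replicate 2 (adjusted p = 0.105 and 0.0993). HOXA13 did not pass without DE replicate 1 (adjusted p = 0.0527). HOXC4 did not pass without DE replicate 1 (adjusted p = 0.0937). For HOXD10 the change was log2 -4.39 without DE replicate 2 and log2 -4.36 without PP2 replicate 3. For HOXD13 the change was a ratio of 965-fold (95% counting interval 267 to 7977) without PP2 replicate 1.

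Of 19 retinoic acid genes, 9 were higher and 7 lower, against 16.4% and 17.1% of all genes. Among synthesis enzymes ALDH1A1 was higher, at 24.3, 20.8 and 36.5 CPM in PP2, against 0.178 and 0.0665 CPM in DE (log2 7.69 ± 0.52, adjusted p = 2.18e-05), and ALDH1A3 was lower, at 0.0522, 0.204 and 0.461 CPM in PP2, against 38.6 and 37.5 CPM in DE (log2 -7.23 ± 0.47, adjusted p = 1.83e-05). CYP26A1, which degrades retinoic acid, was at 1.2, 0.408 and 1.2 CPM in PP2, against 303 and 343 CPM in DE (log2 -8.42 ± 0.40, adjusted p = 5.62e-06). The retinaldehyde reductase DHRS3 (log2 4.27 ± 0.24, adjusted p = 1.04e-05) and the receptor RARB (log2 2.29 ± 0.22, adjusted p = 1.52e-04) were higher, while the carriers CRABP2 (log2 -5.31 ± 0.28, adjusted p = 8.07e-06) and CRABP1 (log2 -4.11 ± 0.39, adjusted p = 1.24e-04) and the receptors RARG (log2 -3.24 ± 0.26, adjusted p = 5.22e-05) and RXRG (log2 -7.68 ± 0.56, adjusted p = 3.20e-05) were lower. At the enzyme and receptor steps alike, some paralogs were higher and others lower. Retinoic acid genes called numbered 10 without DE replicate 1. For ALDH1A1 the change was a ratio of 415-fold (95% counting interval 74.3 to 16388) without DE replicate 1. For RXRG the change was a ratio of 379-fold (95% counting interval 104 to 3133) without PP2 replicate 2 and log2 -7.08 without PP2 replicate 3. For ALDH1A3 the change was log2 -8.12 without PP2 replicate 3.

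Notch genes were higher in 8 of 18 and lower in 3, and without PP2 replicate 3 in 12 and 4. In that setting 6097 and 6552 of all 24105 tested genes were called higher and lower. The ligand JAG1 was at 845, 949 and 1128 CPM in PP2, against 18.2 and 21.7 CPM in DE (log2 5.61 ± 0.28, adjusted p = 6.34e-06), and the target repressor HES1 was at 68.3, 65 and 75.3 CPM in PP2, against 0.95 and 0.532 CPM in DE (log2 6.53 ± 0.29, adjusted p = 4.89e-06). HEY1 (log2 5.78 ± 0.54, adjusted p = 1.25e-04), DLL1 (log2 0.97 ± 0.22, adjusted p = 0.0099) and NRARP (log2 1.44 ± 0.24, adjusted p = 0.00253) were higher and JAG2 (log2 -2.68 ± 0.28, adjusted p = 2.33e-04) was lower. The receptor NOTCH1 was at 371, 366 and 68 CPM in PP2, against 112 and 137 CPM in DE and did not pass (log2 1.11 ± 0.63, adjusted p = 0.219), with PP2 replicate 3 below both DE libraries and the other PP2 libraries above them. It passed without that library (log2 1.57, adjusted p = 1.63e-08). Notch genes called numbered 6 without DE replicate 1 and 6 without DE replicate 2. DLL1 did not pass without DE replicate 1 or DE replicate 2 (adjusted p = 0.111 and 0.0627). For HEY1 the change was a ratio of 186-fold (95% counting interval 33.4 to 7373) without DE replicate 1 and log2 5.08 without DE replicate 2.

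WNT feedback genes were lower in 9 of 16 and higher in 2. AXIN2, a general readout of canonical WNT signalling, was at 7.2, 7.96 and 4.98 CPM in PP2, against 71.8 and 73.6 CPM in DE (log2 -3.44 ± 0.22, adjusted p = 1.89e-05), and SP5 was at 0, 0.102 and 0.0461 CPM in PP2, against 36.8 and 42.5 CPM in DE, a ratio of 795-fold (95% counting interval 272 to 3862). Secreted inhibitors differed in direction, with SFRP1 lower, at 74.8, 74.6 and 54.1 CPM in PP2, against 1248 and 1275 CPM in DE (log2 -4.22 ± 0.21, adjusted p = 6.84e-06), and SFRP5 higher, at 65.5, 68.9 and 61.9 CPM in PP2, against 1.19 and 2.13 CPM in DE (log2 5.31 ± 0.29, adjusted p = 8.33e-06). Among 18 BMP genes 9 were lower and 4 higher. The ligand BMP2 (log2 -3.35 ± 0.19, adjusted p = 1.08e-05), the inhibitory SMAD6 (log2 -2.62 ± 0.17, adjusted p = 1.80e-05) and the target ID3 (log2 -2.08 ± 0.18, adjusted p = 8.38e-05) were lower, and ID2 (log2 3.42 ± 0.36, adjusted p = 2.13e-04) and BMP5 (log2 3.15 ± 0.25, adjusted p = 5.10e-05) higher. Of 17 FGF genes 7 were higher, including the receptors FGFR2 (log2 1.26 ± 0.19, adjusted p = 0.00129), FGFR3 (log2 0.94 ± 0.18, adjusted p = 0.00431) and FGFR4 (log2 1.38 ± 0.36, adjusted p = 0.0194), and 6 were lower, including FGFR1 (log2 -1.24 ± 0.23, adjusted p = 0.00383) and the ligand FGF8 (log2 -5.47 ± 0.33, adjusted p = 1.24e-05). In the Hedgehog list 2 of 13 were higher and 2 lower, near the 16.4% and 17.1% of all genes. The numbers were 4 and 4 without PP2 replicate 3, against 6097 and 6552 of all 24105 genes tested in that setting. The ligand IHH was higher (log2 3.58 ± 0.58, adjusted p = 0.00215), the effector GLI2 was lower (log2 -4.05 ± 0.49, adjusted p = 4.42e-04), and SHH did not pass (log2 0.29 ± 0.26, adjusted p = 0.424). WNT genes called numbered 7 without DE replicate 2. FGF genes called numbered 8 without DE replicate 1. FGFR3 did not pass without DE replicate 1 (adjusted p = 0.069). FGFR4 did not pass without DE replicate 1 or DE replicate 2 (adjusted p = 0.133 and 0.117). For SP5 the change was a ratio of 1613-fold (95% counting interval 289 to 63749.5) without PP2 replicate 2.

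**Figure D4:**
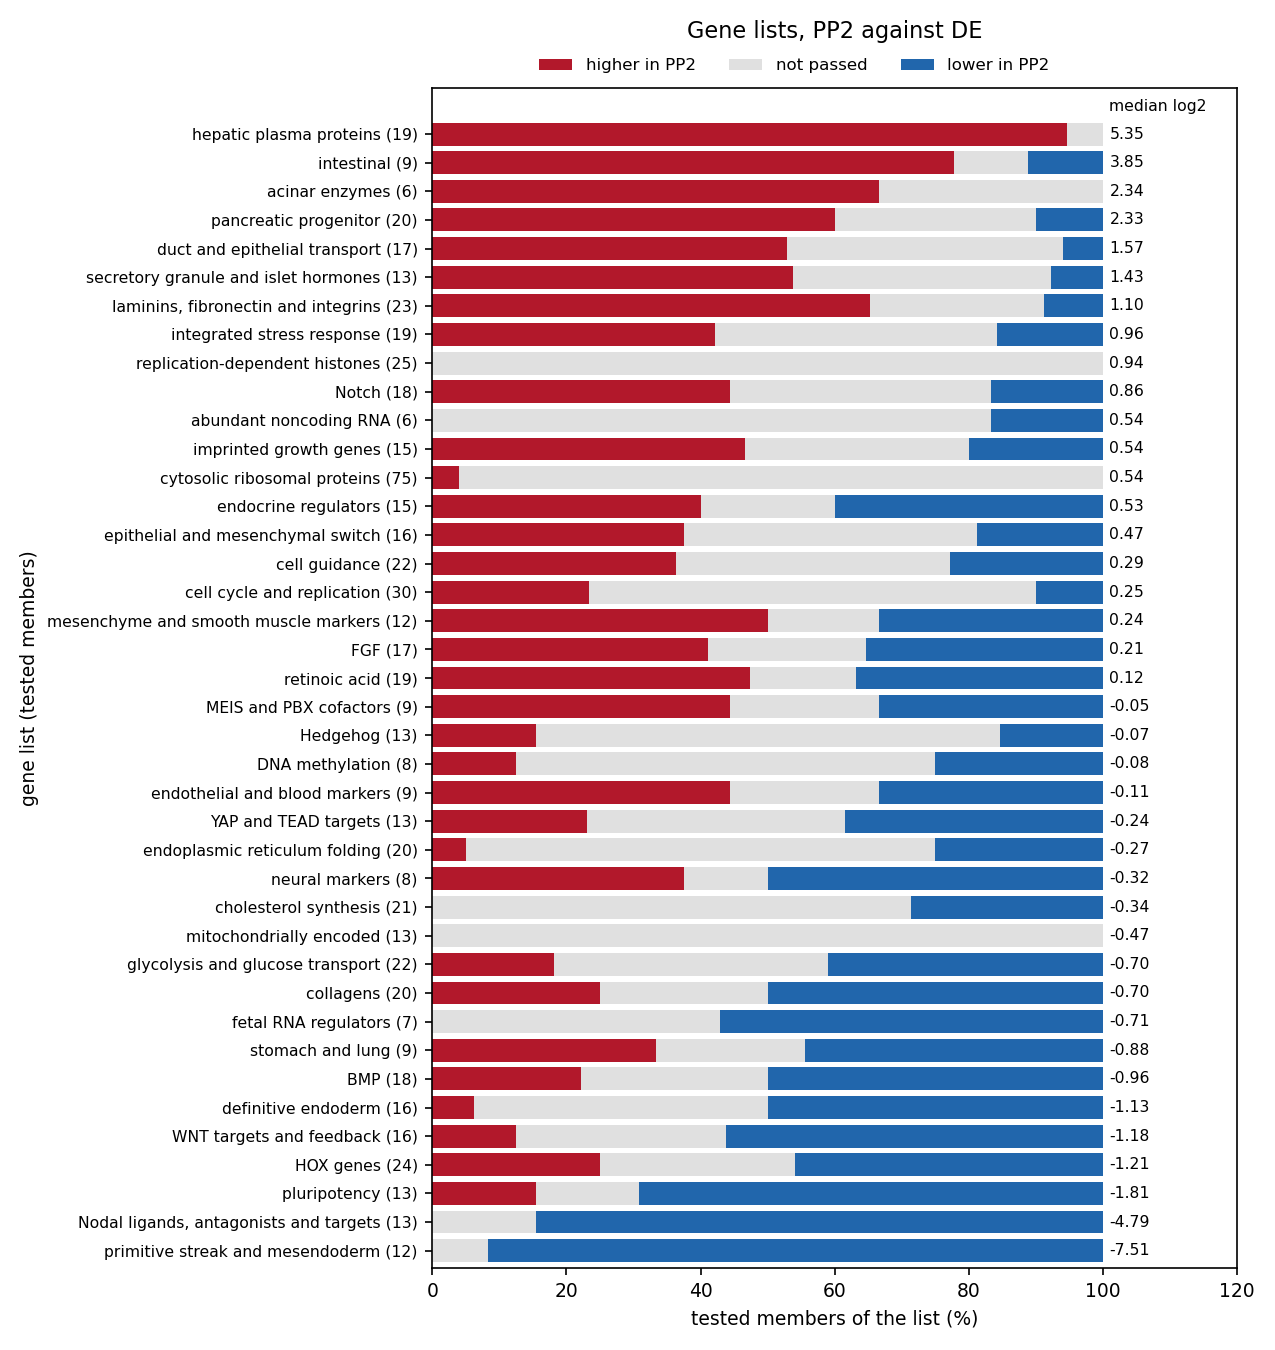
Each bar is 1 gene list, with the share of its tested members that were higher (red), not called (grey) and lower (blue) in PP2, and the median log2 fold change with bounds at the right. Liver plasma protein genes stand at the top (5.35) and primitive streak and mesendoderm genes at the bottom (-7.51).

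Matrix and adhesion genes differed by family. Of 23 laminin, fibronectin and integrin genes, 15 were higher and 2 lower (median log2 1.10), or 16 and 4 without PP2 replicate 3. Basement membrane genes LAMC1 (log2 1.10 ± 0.20, adjusted p = 0.00347) and NID1 (log2 2.31 ± 0.44, adjusted p = 0.00467) and the integrin ITGA2 (log2 4.67 ± 0.32, adjusted p = 2.59e-05) were higher. The fibronectin receptor subunit ITGA5 was lower, at 37.3, 42.4 and 40.3 CPM in PP2, against 307 and 357 CPM in DE (log2 -3.05 ± 0.19, adjusted p = 1.35e-05), as was ITGB5 (log2 -3.85 ± 0.27, adjusted p = 2.66e-05), although FN1 itself was higher. Collagens went the other way, with 10 of 20 lower and 5 higher. The type VI chains COL6A1 (log2 -4.01 ± 0.50, adjusted p = 5.34e-04) and COL6A2 (log2 -4.22 ± 0.24, adjusted p = 1.04e-05) and the basement membrane chain COL4A1 (log2 -1.89 ± 0.17, adjusted p = 1.14e-04) were lower, and the cartilage collagen COL2A1 (log2 2.92 ± 0.49, adjusted p = 0.0026) and COL12A1 (log2 8.24 ± 0.47, adjusted p = 1.04e-05) were higher. LAMC1 did not pass without DE replicate 1 (adjusted p = 0.0538). NID1 did not pass without DE replicate 1 (adjusted p = 0.0571). For COL12A1 the change was a ratio of 501-fold (95% counting interval 171 to 2429) without DE replicate 2.

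Cadherins differed by member. CDH1, E-cadherin, was at 576, 612 and 567 CPM in PP2, against 117 and 131 CPM in DE (log2 2.24 ± 0.19, adjusted p = 7.96e-05), CDH6 was at 658, 776 and 792 CPM in PP2, against 0.297 and 0.532 CPM in DE (log2 10.80 ± 0.38, adjusted p = 2.76e-06), and CDH2, N-cadherin, was at 631, 649 and 842 CPM in PP2, against 1367 and 1376 CPM in DE (log2 -0.96 ± 0.20, adjusted p = 0.00715). The repressor SNAI1 was lower (log2 -3.77 ± 0.43, adjusted p = 3.43e-04), while SNAI2 (log2 1.96 ± 0.55, adjusted p = 0.0263) and ZEB1 (log2 1.38 ± 0.28, adjusted p = 0.00618) were higher at low levels. Among 22 guidance genes 8 were higher and 5 lower, against 16.4% and 17.1% of all genes. The numbers were 12 and 6 without PP2 replicate 3, against 6097 and 6552 of all 24105 genes tested in that setting. SEMA3E, a secreted semaphorin, was at 1.57, 2.75 and 1.66 CPM in PP2, against 461 and 505 CPM in DE (log2 -7.92 ± 0.30, adjusted p = 3.29e-06), and ROBO2, a SLIT receptor, was at 165, 172 and 195 CPM in PP2, against 5.46 and 5.65 CPM in DE (log2 4.99 ± 0.21, adjusted p = 4.17e-06). SNAI2 did not pass without DE replicate 1 or PP2 replicate 1 (adjusted p = 0.186 and 0.0694). ZEB1 did not pass without DE replicate 1 or DE replicate 2 (adjusted p = 0.0628 and 0.0521). CDH2 did not pass without DE replicate 1 or DE replicate 2 (adjusted p = 0.0585 and 0.0614). For SNAI2 the change was log2 2.73 without DE replicate 2.

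Markers of other cell types were present at both stages. The mesenchyme and smooth muscle list summed to 185 to 264 CPM in PP2 and 244 to 245 CPM in DE, with 6 of 12 tested genes higher and 4 lower, and PDGFRA alone was at 142, 131 and 219.8 CPM in PP2. Endothelial and blood markers summed to 45.3 to 64.4 CPM in PP2 and 73.7 to 87.5 CPM in DE (4 of 9 higher, 3 lower), and the endothelial cadherin CDH5 was at 4.64, 3.01 and 4.61 CPM in PP2. Neural markers summed to 179 to 269 CPM in PP2 and 613 to 644 CPM in DE (3 of 8 higher, 4 lower), with OTX2 lower (log2 -7.0 ± 0.27, adjusted p = 3.29e-06) and DCX (log2 4.63 ± 0.43, adjusted p = 1.13e-04) and MAP2 (log2 5.51 ± 0.32, adjusted p = 1.20e-05) higher. In PP2 the neural factors NEUROG1 and NEUROG2 had no count, and neither did the embryonic globin HBE1. The part of such cells in the results was not tested. For MAP2 the change was log2 6.21 without DE replicate 1.

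Of 22 glycolysis and glucose transport genes 9 were lower and 4 higher, against 17.1% and 16.4% of all genes. The numbers were 14 and 5 without PP2 replicate 3, against 6552 and 6097 of all 24105 genes tested in that setting. The fall was steepest in the transporter SLC2A3, while the transporter SLC2A1 was higher, at 94.8, 122 and 91.7 CPM in PP2, against 42 and 57.3 CPM in DE (log2 1.05 ± 0.25, adjusted p = 0.0135). LDHA (log2 -2.16 ± 0.16, adjusted p = 3.43e-05), PKM (log2 -1.69 ± 0.20, adjusted p = 3.65e-04) and PFKL (log2 -2.21 ± 0.17, adjusted p = 4.33e-05) were lower, and LDHB (log2 1.81 ± 0.38, adjusted p = 0.00707) and HK2 (log2 1.37 ± 0.16, adjusted p = 4.44e-04) were higher. Of 21 cholesterol synthesis genes 6 were lower and the rest did not pass. Without PP2 replicate 3, 15 were lower and 1 higher, against 6552 lower and 6097 higher of all 24105 genes tested in that setting. Of 20 endoplasmic reticulum folding genes 5 were lower and 1 was higher (HERPUD1, log2 0.93 ± 0.22, adjusted p = 0.0121), or 12 and 3 without PP2 replicate 3. Integrated stress response genes were higher in 8 of 19 and lower in 3, or 9 and 7 without PP2 replicate 3. The serine synthesis enzyme PHGDH was at 366, 395 and 232 CPM in PP2, against 85.8 and 80.1 CPM in DE (log2 2.0 ± 0.26, adjusted p = 7.37e-04), and the amino acid transporter SLC7A5 was at 149, 210.0 and 97.4 CPM in PP2, against 1189 and 1165 CPM in DE (log2 -2.95 ± 0.30, adjusted p = 1.91e-04). Cholesterol genes called numbered 3 without DE replicate 1 and 3 without DE replicate 2. Endoplasmic reticulum genes called numbered 2 without DE replicate 1 and 1 without DE replicate 2. Glycolysis genes called numbered 6 without DE replicate 1 and 8 without DE replicate 2. Stress response genes called numbered 6 without DE replicate 1 and 4 without DE replicate 2. SLC2A1 did not pass without DE replicate 1 (adjusted p = 0.143). LDHB did not pass without DE replicate 1 or DE replicate 2 (adjusted p = 0.0617 and 0.0678). HERPUD1 did not pass without DE replicate 1 or DE replicate 2 (adjusted p = 0.0673 and 0.135).

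Calls among genes of the ribosome, the cell cycle and chromatin differed with and without PP2 replicate 3. Of 75 cytosolic ribosomal protein genes 3 were higher and the rest did not pass. Without PP2 replicate 3 20 were higher and 2 lower, and that library lay at 46741 CPM in sum, against 23653 and 23650.4 CPM in the other PP2 libraries. Of 30 cell cycle genes 7 were higher and 3 lower, against 16.4% and 17.1% of all genes. The numbers were 10 and 11 without PP2 replicate 3, against 6097 and 6552 of all 24105 genes tested in that setting. None of 25 histone genes and none of 13 mitochondrially encoded genes passed edgeR's quasi-likelihood test with all libraries, 4 and 0 of them having an unadjusted p under 0.05. By DESeq2 the calls were 3 and 0, and by limma voom 8 and 0. Without PP2 replicate 3, 5 histone genes were higher and 4 lower. Cell cycle genes called numbered 3 without DE replicate 1 and 1 without DE replicate 2. Ribosomal protein genes called numbered 0 to 7 on leaving out any 1 of the other 6 libraries. Histone genes called numbered 4 without PP2 replicate 1 and 3 without PP2 replicate 2.

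Imprinted growth genes were higher in part. Of 15 tested, 7 were higher and 3 lower, against 16.4% and 17.1% of all genes. DLK1, a membrane-bound relative of Notch ligands, was at 2028, 1949 and 450.2 CPM in PP2, against 24 and 22.3 CPM in DE (log2 5.99 ± 0.71, adjusted p = 4.13e-04), and the noncoding RNA MEG3 of its locus was at 42.9, 37.6 and 23.6 CPM in PP2, against 0.89 and 1.46 CPM in DE (log2 4.88 ± 0.50, adjusted p = 1.94e-04). MEST was at 671, 608 and 269 CPM in PP2, against 149 and 128 CPM in DE (log2 1.90 ± 0.39, adjusted p = 0.00628). The noncoding RNA H19 was absent from DE and at 187, 219 and 148 CPM in PP2 (at least 1953-fold higher). IGF2, the growth factor gene beside it, was at 1923, 2140.5 and 15.3 CPM in PP2, against 3.5 and 3.72 CPM in DE (log2 8.55 ± 1.92, adjusted p = 0.010). PP2 replicates 1 and 2 were far above replicate 3 for IGF2, while H19 was alike in size in all 3. Without replicate 3 the change of IGF2 was log2 9.14 (adjusted p = 9.08e-19). Imprinted genes called numbered 5 without DE replicate 1 and 5 without DE replicate 2. MEST did not pass without DE replicate 1 or DE replicate 2 (adjusted p = 0.0505 and 0.0718). IGF2 did not pass without DE replicate 1 or DE replicate 2 (adjusted p = 0.087 and 0.088).

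Of 1530 long noncoding RNA genes 283 were higher and 261 lower, near the 16.4% and 17.1% of all tested genes. The genes named next were picked by fitted fold change, also where a bound is given. The highest folds after H19 included LINC00543 (at least 163-fold higher), HOXA-AS2 (at least 114-fold higher), LHFPL3-AS2 (log2 9.70 ± 0.56, adjusted p = 1.13e-05), SOX9-AS1, a ratio of 396-fold (95% counting interval 109.6 to 3277), LINC00607 (log2 8.29 ± 0.30, adjusted p = 2.76e-06) and IGF2-AS (log2 6.29 ± 0.28, adjusted p = 4.86e-06). The lowest were P3H2-AS1 (at least 225-fold lower), LINC00458 (log2 -10.34 ± 0.52, adjusted p = 6.90e-06), LINC01356 (log2 -8.55 ± 0.42, adjusted p = 6.23e-06), LINC01484 (log2 -7.93 ± 0.48, adjusted p = 1.37e-05), EGFLAM-AS4, a ratio of 267-fold (95% counting interval 90.6 to 1298), LINC01833 (log2 -7.35 ± 0.44, adjusted p = 1.30e-05), C1orf61 (log2 -7.22 ± 0.66, adjusted p = 1.08e-04) and HAS2-AS1 (log2 -7.21 ± 0.58, adjusted p = 5.18e-05). Values of antisense genes are uncertain, since the strand setting was not given and reads of the partner gene may be counted in them. For LHFPL3-AS2 the change was log2 8.79 without DE replicate 2. For SOX9-AS1 the change was a ratio of 209-fold (95% counting interval 57.9 to 1731) without DE replicate 2. For LINC01833 the change was log2 -8.08 without PP2 replicate 1. For HAS2-AS1 the change was a ratio of 444-fold (95% counting interval 79.2 to 17591) without PP2 replicate 1 and log2 -6.62 without PP2 replicate 3. For C1orf61 the change was log2 -6.60 without PP2 replicate 3. For EGFLAM-AS4 the change was a ratio of 513-fold (95% counting interval 91.5 to 20303) without PP2 replicate 3. For LINC01484 the change was a ratio of 422-fold (95% counting interval 116 to 3489) without PP2 replicate 3. For LINC00458 the change was a ratio of 5305-fold (95% counting interval 952 to 209565) without PP2 replicate 3.

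Ribosome profiling of the same stages, in separate libraries, was set beside the RNA change. In Ribo 4153 of 15067 tested genes (27.6%) differed between PP2 and DE, 1974 higher (13.1%) and 2179 lower (14.5%). Of 2598 genes higher in RNA and tested in Ribo, 1076 (41.4%) were higher and 64 lower there, and these made up 55.1% of the 1952 genes higher in Ribo and tested in RNA. Of 2809 genes lower in RNA, 1209 (43.0%) were lower and 18 higher in Ribo, 66.6% of the 1815 lower in Ribo. Among genes over 3 log2 units from DE in RNA, 346 of 551 were also higher and 495 of 556 also lower in Ribo. Across 14152 genes, which are not independent replicates, Pearson's r of the fitted changes was 0.70 and Spearman's rho 0.55.

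**Figure D5:**
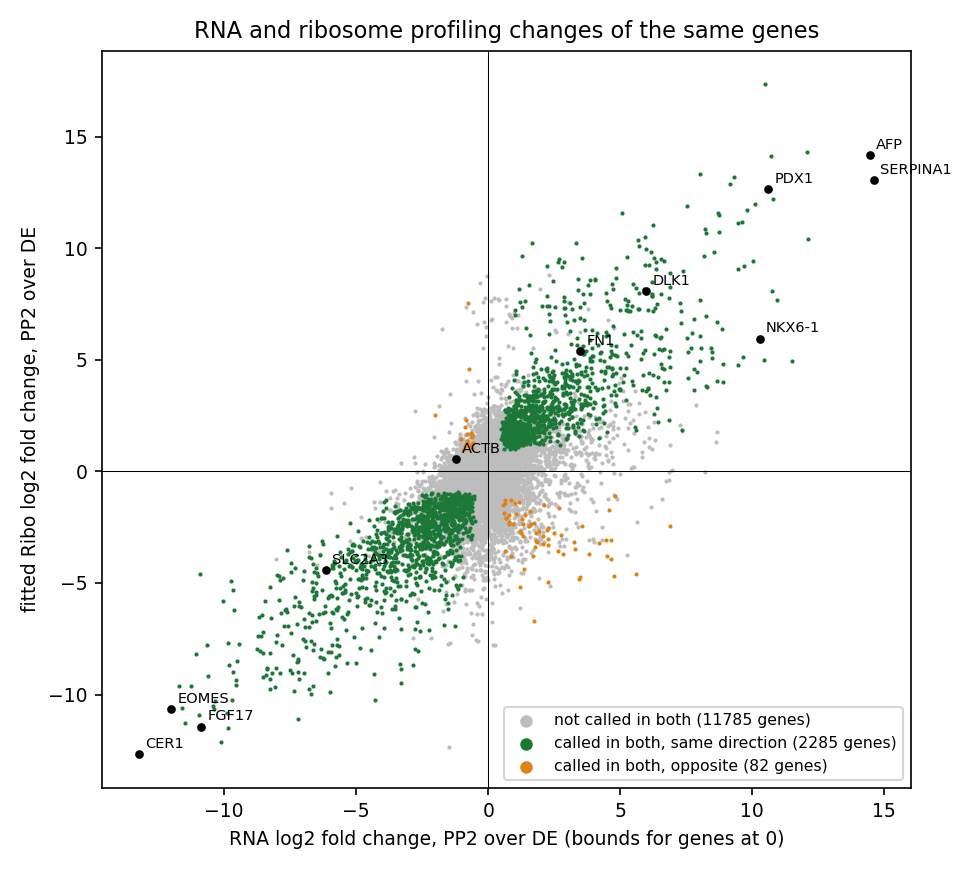
Each point is 1 of 14152 genes tested in both assays, with the RNA log2 fold change of PP2 over DE across and the fitted Ribo log2 fold change up. Genes called in both lie mostly on the diagonal, from CER1 at the lower left to AFP and SERPINA1 at the upper right, and a smaller set lies on opposite sides of 0.

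The leading genes were also far apart in Ribo. CER1 was at 0.33, 0.129 and 0.433 CPM in the PP2 Ribo libraries, against 1646 and 2693 CPM in DE (log2 -12.68 ± 0.76), and EOMES at 0, 0.259 and 0.144 CPM, against 138 and 136 CPM (log2 -10.64 ± 0.77). NKX6-1 was at 190.4, 240.4 and 134 CPM in PP2 and 3.37 and 2.72 CPM in DE (log2 5.95 ± 0.48), and FN1 at 12138, 3086 and 18544 CPM in PP2 and 291 and 248 CPM in DE (log2 5.39 ± 1.16). The PP2 and DE libraries did not overlap for these 4 genes. In RNA 60.2% of all tested genes showed such a separation, and its share in Ribo was not counted. Of 20 endoplasmic reticulum folding genes 7 were higher in Ribo, where 5 were lower and 1 higher in RNA, a difference that was not tested. FABP1, an intestinal and hepatic fatty acid carrier, was at 1.57, 2.09 and 2.9 CPM in PP2 RNA and absent from DE RNA (at least 23.6-fold higher), but in Ribo it was at 5.82, 4.01 and 4.33 CPM in PP2, against 13.8 and 18.3 CPM in DE (log2 -1.75 ± 0.39). The Ribo PP2 libraries differed in composition, since protein-coding genes took 94.9%, 43.9% and 79.7% of their counts, against 34.7% and 35.2% in DE. Ribo calls numbered 1810 without DE replicate 1, 1788 without DE replicate 2, 6837 without PP2 replicate 2 and 2133 without PP2 replicate 3. For EOMES in Ribo the change was log2 -9.37 without PP2 replicate 1 and a ratio of 3649-fold (95% counting interval 1008 to 30154) without PP2 replicate 2.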

How the data were processed

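Gene counts of RNA-seq and ribosome profiling libraries were used as the authors deposited them, whole numbers with no normalization. Per the submitters' processing notes, cutadapt 1.18, Bowtie 1.2, STAR 2.7.1a, featureCounts 1.6.4 and the hg38 build were used. The gene annotation and the strand setting are not given in the sources used here. RNA libraries held 15107847 to 21009065 counts and Ribo libraries 4710335 to 24186949. From the counts, edgeR 4.0.16 (R 4.3.3, filterByExpr, TMM, quasi-likelihood F test) was fitted to the 7 libraries of each assay with 3 stages, and PP2 minus DE was tested with Benjamini-Hochberg adjustment over all tested genes. CPM uses TMM-scaled library sizes. TPM uses the gene lengths in the deposited table. DESeq2 1.42.0 and limma 3.58.1 served as alternatives, with other filters, scalings, a 2-fold threshold, a replicate block and each library left out. The script was tested on simulated data.

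Genes were named from 40 lists (755 of 757 symbols found) and as the 12 highest and 12 lowest protein-coding fold changes among called genes with at least 10 CPM in one stage and no overlap of libraries, the 8 largest gains and losses in CPM, 8 genes whose PP1 level lay farthest from both DE and PP2 on the same side, with PP2 within 1 log2 unit of DE, and 8 noncoding genes each way. Some genes that these rules named are not reported here. The members and lists were chosen with earlier results of these data known. Intervals and floors cover counting error only.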

Additional observations from a re-analysis of the deposited data

How the results depend on the processing

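RNA calls numbered 8240, and 4216 to 12649 when 1 library was left out (higher 1862 to 6097, lower 2354 to 6552). Limma voom gave 12995 (6225 higher, 6770 lower), a test against a 2-fold change 3839 (1736 and 2103), and a mean of at least 50 counts 2706 lower genes. The other RNA settings (DESeq2's test and size factors, TMM without mitochondrial and structural RNA genes, no filter, 5 libraries, protein-coding genes) stayed within 1.5 times. No pairing by replicate number was seen: correlations of same-numbered RNA libraries ran from -0.069 to 0.083, and of differently numbered ones from -0.083 to 0.097. Libraries were few and PP2 replicate 3 stood far from its group, so this check cannot exclude a pairing. With the number as a replicate block, over replicates 1 and 2, 12368 genes were called, 6422 of them lower, and PP2 replicate 3 was not in that fit. Ribo calls (4153) numbered 1788 to 6837 with 1 library left out, 2410 without PP2 replicates 1 and 3, and 1566 with the replicate block. Of 218 named genes with a test, 202 were called, and all of these kept their direction in every setting that tested them, 165 also their call. With 1 library left out, the log2 change crossed 0 in 5 genes that were not called: CUBN ran between -0.432 and 0.00343, HHEX between -0.204 and 0.00470, NUPR1 between -0.00499 and 4.37, HP between -0.0854 and 0.463, and DNMT1 between -0.0429 and 0.207. The cause of these changes was not tested. A count of 0 allowed up to 0.0941 CPM in DE.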

Other observations

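Of 8 tested genes around DNA methylation 1 was higher and 2 were lower, counts that do not set the list apart from the 16.4% and 17.1% of all genes. The numbers were 2 and 2 without PP2 replicate 3, against 6097 and 6552 of all 24105 genes tested in that setting. TET2, a dioxygenase that oxidises methylcytosine, was at 113, 117.9 and 105 CPM in PP2, against 38.8 and 40.7 CPM in DE (log2 1.49 ± 0.17, adjusted p = 3.11e-04). TET1, its paralog, was at 173, 180.0 and 148 CPM in PP2, against 334 and 313 CPM in DE (log2 -0.95 ± 0.17, adjusted p = 0.00342), and the other member that was lower was the methyltransferase DNMT3B. The maintenance methyltransferase DNMT1 did not pass, at 169, 184 and 128 CPM in PP2, against 156 and 152 CPM in DE (log2 0.06 ± 0.20, adjusted p = 0.844).

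Targets and partners of the Hippo effectors YAP and TEAD were higher in 3 of 13 and lower in 5, against 16.4% and 17.1% of all genes. Fewer were called on leaving out either DE library, which leaves a single library in that stage. The transcriptional cofactor VGLL4 was at 74.2, 71 and 79.7 CPM in PP2, against 43.6 and 46.1 CPM in DE (log2 0.74 ± 0.16, adjusted p = 0.00871, or 0.106 and 0.0828 without DE replicate 1 or 2), and the matricellular protein gene CCN2 was at 31.9, 35.8 and 21.8 CPM in PP2, against 84.3 and 84.5 CPM in DE (log2 -1.50 ± 0.22, adjusted p = 0.00122). Of 6 abundant noncoding RNA genes 1 was lower, none was called without DE replicate 1 or DE replicate 2 by edgeR's test, and 1 was higher and 1 lower without PP2 replicate 3.

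Some of the widest gaps within PP2 were single genes of replicate 3, chosen here after their values were seen. The ribosomal protein gene RPS16 was at 249, 259 and 9.08 CPM in RNA PP2 replicates 1, 2 and 3, against 270.3 and 296 CPM in DE, and the splicing cofactor SRRM2 was at 1601, 1709 and 133 CPM in RNA PP2 replicates 1, 2 and 3, against 1654 and 1843 CPM in DE. RPS27 went the other way, at 91.9, 89 and 520.1 CPM in RNA PP2 replicates 1, 2 and 3, against 72.5 and 81.4 CPM in DE. In the 3 Ribo PP2 libraries RPS16 was at 42.9, 55.7 and 32.1 CPM, SRRM2 at 401, 368 and 415 CPM and IGF2 at 176, 394 and 203 CPM, none of them with a gap of that size. None of RPS16, SRRM2 and RPS27 was called between PP2 and DE by edgeR's test.

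Genes called in opposite directions in RNA and Ribo were also named after their values were seen. GFPT1, the first enzyme of hexosamine synthesis, was at 148 CPM in PP2 and 235 CPM in DE in RNA (means, log2 -0.67), but 88.9 CPM in PP2 and 27.2 CPM in DE in Ribo (log2 1.71). The long noncoding RNA LINC01355 was at 28.9 CPM in PP2 and 12.4 CPM in DE in RNA (means, log2 1.22), but 0.996 CPM in PP2 and 34.6 CPM in DE in Ribo (log2 -5.20). The difference between the assays was not tested. Protein-coding genes took 94.9%, 43.9% and 79.7% of the counts in the Ribo PP2 libraries, against 34.7% and 35.2% in DE. The part of this shift in the opposite calls was not tested either.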
